A study of Mus musculus with 2 samples.

Results

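This report describes 10 interferon-inducible GTPase genes, Gbp2, Gbp3, Gbp4, Gbp5, Gbp7, Irgm1, Irgm2, Igtp, Iigp1 and Tgtp2, in granulocytes, macrophages, T cells, B cells and endothelial cells of mouse liver metastases. They are 10 of the 56941 genes in the count tables and were taken by name, all 10 being present. The study asked how SLAMF3 in colorectal cancer cells shapes the immune cells of liver metastases. It used MC38-LM3b, a line derived from the MC38 mouse colorectal cancer line by repeated passage through liver metastases. Metastases were seeded by intrasplenic injection of cells carrying a scrambled hairpin (MC38-LM3b-shScramble, here Ctrl) or a hairpin against SLAMF3 (MC38-LM3b-shSLAMF3, here KD). The C57BL/6 mice were 6 to 8 weeks old when injected, and CD45+ cells were collected 2 weeks later. Each group was 1 single-cell library of 3 pooled mice. Only the injected tumor cells carried a hairpin, and 1 hairpin line was compared with 1 scrambled line. With 1 library per group no difference between Ctrl and KD can be tested against the spread between mice, and the intervals given below cover counting error only.

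Guanylate-binding proteins (Gbp genes) and immunity-related GTPases (IRG genes) are enzymes that cells make in response to interferons, above all interferon-gamma. They gather on the vacuoles in which intracellular bacteria and parasites live, help to break these open, and some of them promote inflammasome assembly. Irgm1, Irgm2 and Igtp (also called Irgm3) are the regulatory members, which keep effector members such as Iigp1 and Tgtp2 inactive on the membranes of the cell itself. Promoters of both families are known for carrying the gamma-activated site and the interferon-stimulated response element.

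The promoters are shown first, because all of these genes are read below as a set that responds to interferon. RefSeq promoters of build GRCm38.p6, from 250 bases before to 50 bases after the start of the gene, were matched by symbol for 8 of the 10 genes. The core of the response element was searched as GAAA, any 2 bases and GAAA again, on both strands, and that of the gamma-activated site as TTCNNNGAA. Each of the 8 held at least 1 response element core, against 3.44% of 32851 promoters of the same length. A match to TTCNNNGAA was present in 5 of the 8, against 8.30% of all promoters. In the windows that follow, written 5′ to 3′ on the strand of the gene, the capitals mark the response element core, which reads TTTC, any 2 bases and TTTC when it lies on the other strand.
Gbp2: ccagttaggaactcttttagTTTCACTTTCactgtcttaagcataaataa
Gbp3: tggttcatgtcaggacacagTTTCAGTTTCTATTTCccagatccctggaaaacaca
Gbp5: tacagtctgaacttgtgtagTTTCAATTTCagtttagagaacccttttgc
Gbp7: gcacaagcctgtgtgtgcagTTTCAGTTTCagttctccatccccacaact
Irgm1: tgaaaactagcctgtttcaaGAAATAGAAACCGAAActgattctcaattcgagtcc
Irgm2: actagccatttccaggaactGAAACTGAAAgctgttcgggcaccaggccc
Igtp: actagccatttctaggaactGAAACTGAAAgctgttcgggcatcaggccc
Tgtp2: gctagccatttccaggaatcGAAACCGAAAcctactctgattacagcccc

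In the 4 Gbp promoters the core lay on the other strand, and in the 4 IRG promoters it lay on the strand of the gene. The matches ended 14 bases (Irgm1) to 155 bases (Gbp5) before the start of the gene. The windows of Igtp and Irgm2 were identical at 48 of 50 bases. Gbp3 had a further promoter entry with no match to either motif. The Gbp windows lie on the plus strand at chr3:142620584-142620633 (Gbp2), chr3:142559979-142560034 (Gbp3), chr3:142496749-142496798 (Gbp5) and chr3:142530263-142530312 (Gbp7). The IRG windows lie at chr11:48871415-48871470 (Irgm1, minus strand), chr11:49064253-49064302 (Tgtp2, minus strand), chr11:58199502-58199551 (Igtp, plus strand) and chr11:58214893-58214942 (Irgm2, plus strand). A match describes the letters of the promoter and was not tested as a binding site.

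The libraries held 67207234 (Ctrl) and 64444715 (KD) unique molecular identifiers (UMIs, each standing for 1 captured transcript), and 9814 and 10185 cells passed the filters, with median depths of 5411.5 and 4989 UMIs. The median share of mitochondrial UMIs was higher in KD in all 5 classes described here, at 1.12% and 1.56% in granulocytes, 1.41% and 1.61% in macrophages, 1.43% and 1.93% in T cells, 2.12% and 3.10% in B cells, and 1.60% and 2.17% in endothelial cells, and its part in the results was not tested. In all, 27 cell barcodes occurred in both libraries. Cells were clustered with the GTPases and other listed interferon genes left out of the clustering genes, and clusters were named by markers. This gave 778 and 2219 granulocytes, 4105 and 3082 macrophages, 3225 and 1614 T cells, 272 and 870 B cells, and 150 and 645 endothelial cells (Ctrl and KD). All markers of each class had UMIs in that class in both libraries, but all 13 granulocyte markers also had UMIs in macrophages and T cells. This count therefore does not set the classes apart. Main macrophage cluster 5 was named from 4 of 13 macrophage markers, the fewest of the macrophage clusters. Endothelial cells are not expected in a CD45+ selection. Ly9, which encodes SLAMF3, was read by 1349 UMIs in Ctrl and 1157 UMIs in KD over all cells. The hairpin acts in tumor cells, of which few were left by the selection. In the cluster named tumor or fibroblast, led by Rhox5, Krt18 and Krt8, Ly9 had 12 UMIs over 161 cells in Ctrl (5.91 CPM) and 7 UMIs over 96 cells in KD (5.36 CPM), too few to check the labels.

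In the Ctrl library the GTPases were highest in granulocytes. Their summed level, in counts per 1000000 UMIs of the class (CPM), was 3789 CPM in granulocytes, 1956 CPM in macrophages, 1452 CPM in endothelial cells, 442 CPM in B cells and 311 CPM in T cells, and the Poisson intervals of neighbors in this order did not overlap. Granulocytes had the highest level of 6 genes (Gbp2, Gbp5, Gbp7, Irgm1, Irgm2 and Igtp), macrophages of 2 (Gbp3 and Gbp4, with intervals that overlapped those of granulocytes) and endothelial cells of 2 (Iigp1, and Tgtp2 with an interval that overlapped that of the next class). T cells were lowest for 8 of the 10, but for Gbp3, Gbp4, Gbp5 and Tgtp2 the interval overlapped that of B cells.

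In the KD library this order was different. Macrophages had the highest sum (890 CPM), followed by endothelial cells (711 CPM) and granulocytes (698 CPM), whose intervals overlapped, and then by T cells (276 CPM) and B cells (174 CPM). Macrophages were now highest for 6 genes, but for 4 of these (Gbp4, Irgm1, Igtp and Tgtp2) the interval overlapped that of the next class. Granulocytes were highest for Gbp2, and for Gbp5 with an interval that overlapped that of macrophages. Granulocytes were the lowest of the 5 classes for Gbp4 and Tgtp2, and for Iigp1 with an interval that overlapped that of B cells.

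**Figure D1:**
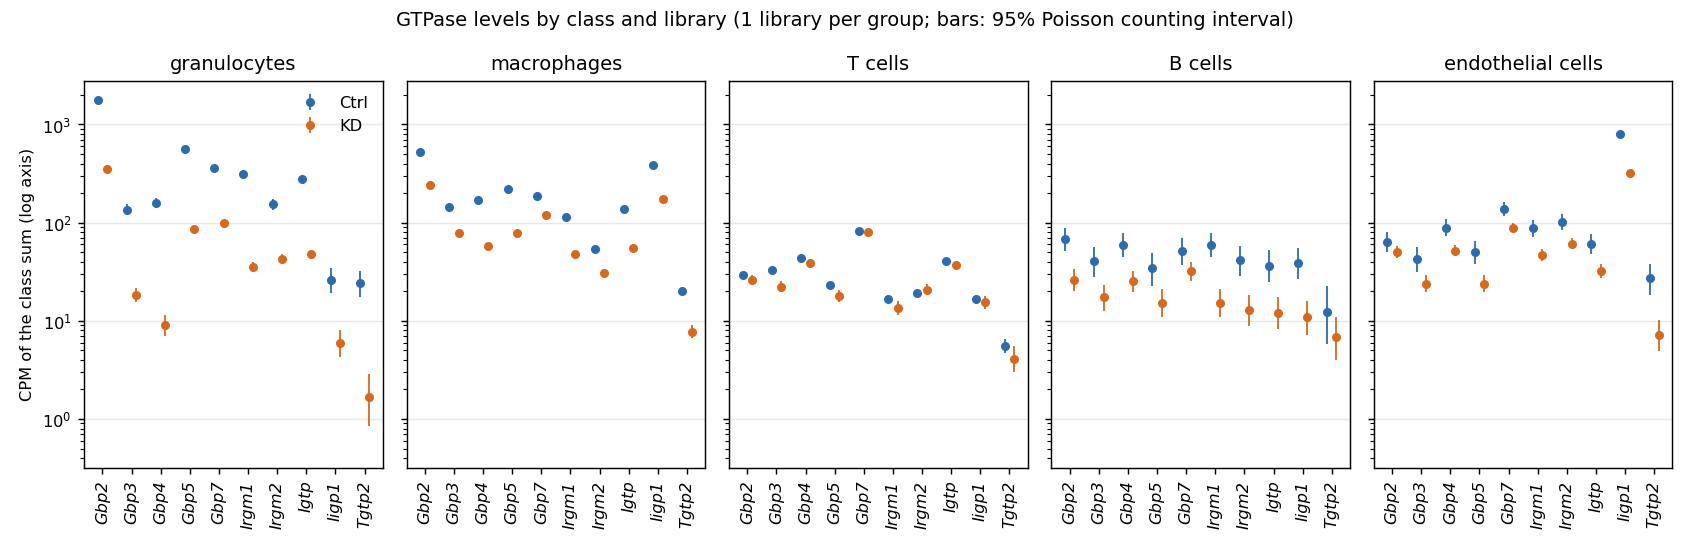
Level of each GTPase (y axis, CPM of the UMIs summed over the class, log axis) in the 5 classes, with Ctrl in blue, KD in orange and bars for the 95% Poisson interval. The Ctrl and KD points lie far apart in granulocytes (Gbp2 at 1772 and 352 CPM) and close together in T cells (29.4 and 26.3 CPM).

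Each class had its own make-up of GTPase transcripts, which is compared here as shares of UMIs because the 3′ assay counts 1 end per transcript whatever its length. Gbp2 made up 46.8% of the GTPase UMIs of granulocytes in Ctrl and 50.4% in KD. In endothelial cells Iigp1 made up 54.6% and 45.6%, while in granulocytes it was 0.694% and 0.851%. Macrophages stood between these, with 26.7% and 27.1% from Gbp2 and close to 20% in each library from Iigp1. Gbp7 was the largest share in T cells, at 26.7% and 28.9%.

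For Gbp2 the share ran from 4.38% in endothelial cells to 46.8% in granulocytes of Ctrl, while within a class its values in the libraries lay closer together. The largest shift between libraries within granulocytes was in Gbp7, whose share was 9.48% in Ctrl and 14.3% in KD, while that of Gbp4 was 4.15% and 1.29%. The ratios among the genes in lymphocytes and in endothelial cells were not those of granulocytes or macrophages.

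**Figure D2:**
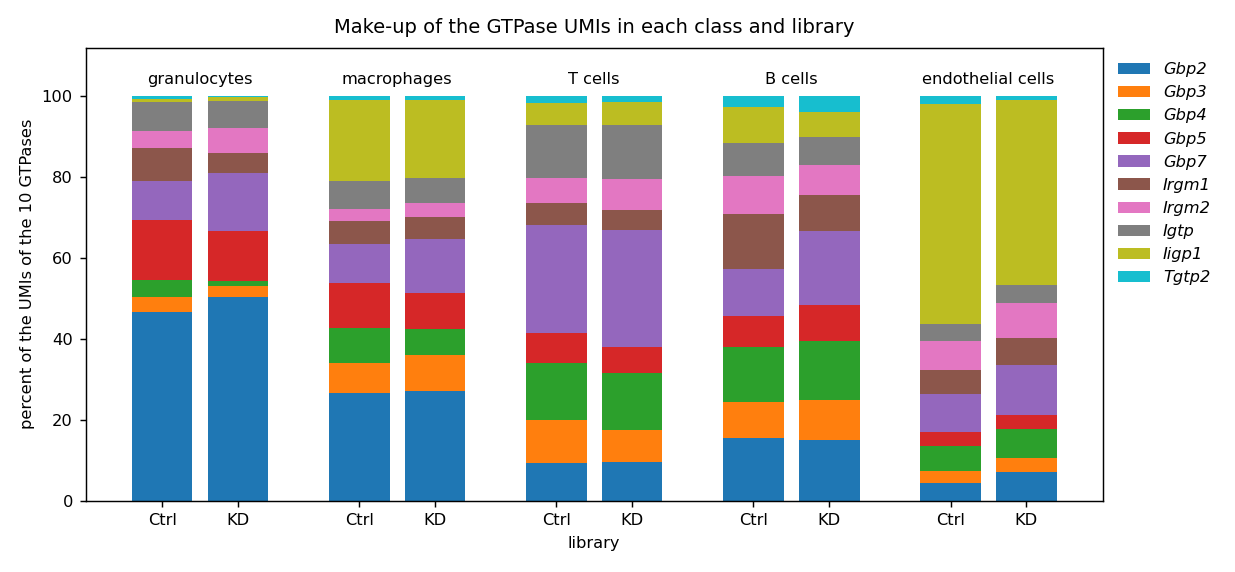
Share of the UMIs of the 10 GTPases (y axis, percent) that came from each gene, by class and library (x axis). Gbp2 is the tallest segment in granulocytes (46.8% in Ctrl), Gbp7 in T cells (26.7%) and Iigp1 in endothelial cells (54.6%), and the bars of the same class look alike in the 2 libraries.

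In granulocytes all 10 GTPases were at least 2-fold lower in KD, where 7.09% of the 7167 genes with at least 50 UMIs in the class were that much lower and 7.42% that much higher. The median log2 ratio of KD over Ctrl was -2.64 over the 10 genes and 0.13 over all genes. The summed level was 3789 CPM in Ctrl and 698 CPM in KD, a log2 ratio of -2.44 (95% counting interval -2.49 to -2.39), which is 5.43-fold lower in KD.

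Among the Gbp genes, Gbp2 (ENSMUSG00000028270), the most abundant, was at 1772 CPM in Ctrl granulocytes and 352 CPM in KD (log2 ratio -2.33, interval -2.41 to -2.26). Gbp5, known for promoting NLRP3 inflammasome assembly, was at 567 and 85.7 CPM (log2 ratio -2.73, -2.87 to -2.58). Gbp4 had the lowest ratio of the set, with 157 CPM in Ctrl and 8.99 CPM in KD (log2 ratio -4.13, -4.54 to -3.73). Gbp3 was at 136 and 18.4 CPM, a log2 ratio of -2.88. Gbp7, known for its part in assembling the phagocyte oxidase, had the ratio closest to 0, with 359 and 99.8 CPM and a log2 ratio of -1.85. The interval of this ratio did not overlap that of any other Gbp gene.

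Among the IRG genes, the regulatory Irgm1 was at 316 CPM in Ctrl and 35.5 CPM in KD granulocytes, a log2 ratio of -3.15 (-3.37 to -2.94). Igtp was at 278 and 47.6 CPM (log2 ratio -2.55), and Irgm2 at 153 and 42.5 CPM (log2 ratio -1.85, -2.09 to -1.61). The regulatory members thus differed from one another, with Irgm1 lower than Irgm2 by more than counting error. The effectors Iigp1 and Tgtp2 were scarce in granulocytes in both libraries, with 26.3 and 5.95 CPM for Iigp1 and 24.1 and 1.66 CPM for Tgtp2. The Tgtp2 value in KD rests on 12 UMIs. Tgtp1, a near-identical copy that shares reads with Tgtp2, was at 76.1 CPM in Ctrl and 2.90 CPM in KD, so that the split between these copies is uncertain. The sum without Tgtp2 gave a log2 ratio of -2.43.

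**Figure D3:**
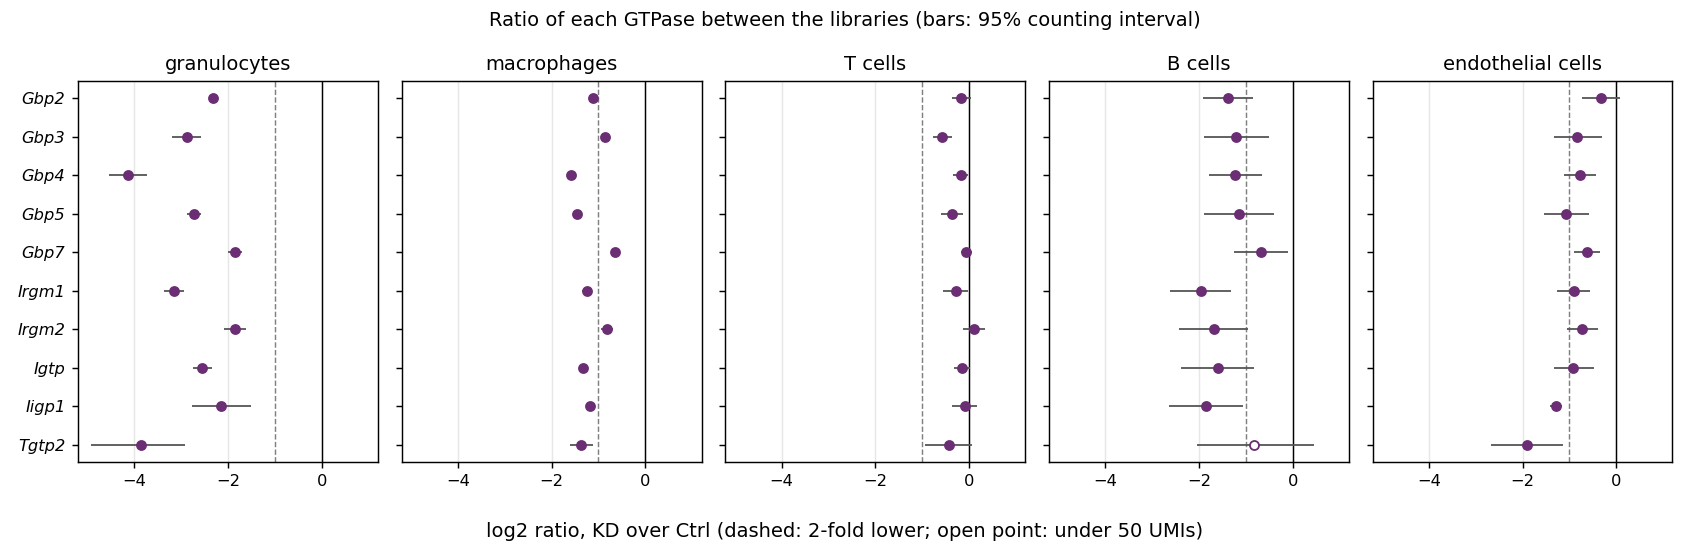
Log2 ratio of KD over Ctrl (x axis) of each GTPase (y axis) in the 5 classes, with bars for the 95% counting interval, a dashed line at 2-fold lower and an open point for the 1 value under 50 UMIs. All 10 points lie left of the dashed line in granulocytes, 7 in macrophages, 8 of the 9 filled points in B cells and 3 in endothelial cells, and none does in T cells.

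The granulocytes of the libraries were not of the same kind. Main cluster 12, led by Ngp, Camp, Ltf and Lcn2, which are genes of immature granulocytes, held 46 cells of Ctrl and 580 of KD, and its summed GTPase level was low in both (474 and 248 CPM). Without it, the log2 ratio of the sum in granulocytes was -2.09. At a finer resolution of 1.0, 64.2% of Ctrl granulocytes lay in cluster 7, led by Hcar2, Csf1, Acod1 and G0s2, and 51.6% of KD granulocytes in cluster 2, led by Stfa2l1, Asprv1, Hdc and Cstdc4.

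The GTPases were lower in KD within each of these finer clusters, but by less than over the class as a whole. In cluster 7 the sum was 5651 CPM in Ctrl and 1926 CPM in KD (log2 ratio -1.55, -1.63 to -1.47, with 513 and 417 cells). In cluster 2 it was 1852 and 808 CPM (log2 ratio -1.20, -1.30 to -1.09, with 218 and 1194 cells). At least 2-fold lower were 8 of the 8 GTPases with at least 50 UMIs in cluster 7, against 4.75% of 3639 genes, and 5 of 7 in cluster 2, against 2.85% of 4981 genes. The class value at this resolution was -2.38, so the log2 ratio over all granulocytes includes the different mix of clusters as well as the difference within them. The clusters at this resolution were examined after the class values were seen.

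Markers of macrophages in granulocytes were at a like level in both libraries, and those of T cells were higher in Ctrl. The macrophage list (13 of 13 markers with UMIs in each library) summed to 714 CPM in Ctrl and 732 CPM in KD, and the T cell list (9 of 10, with Cd4 at 0, and 10 of 10) to 91.4 and 50.7 CPM. The granulocyte list itself was at 76967 and 123861 CPM. With cells holding UMIs of Cd3e, Cd79a, Stab2 or C1qa left out, the log2 ratio of the sum was -2.41.

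In macrophages 7 of the 10 GTPases were at least 2-fold lower in KD, against 2.86% of 13367 genes lower and 2.6% higher, with a median log2 ratio of -1.22. The sum was 1956 CPM in Ctrl and 890 CPM in KD, a log2 ratio of -1.14 (-1.16 to -1.11). The 3 that did not reach 2-fold were Gbp7 at 185 and 119 CPM (log2 ratio -0.64), Irgm2 at 53.6 and 30.5 CPM (-0.81) and Gbp3 at 143 and 78.9 CPM (-0.86).

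The genes with the lowest and the highest ratios in macrophages were Gbp4 and Gbp7, as in granulocytes. Gbp4 was at 171 CPM in Ctrl and 57.5 CPM in KD, a log2 ratio of -1.58 (-1.66 to -1.49). Gbp5 followed with 218 and 79.0 CPM (log2 ratio -1.47), and Gbp2 was at 522 and 241 CPM (-1.11). Irgm1 was at 115 and 48.0 CPM (-1.26) and Igtp at 137 and 54.7 CPM (-1.32), so that Irgm2 again had the ratio closest to 0 among the regulatory members. Iigp1, the effector that coats parasite vacuoles, was far more abundant here than in granulocytes, with 391 CPM in Ctrl and 173 CPM in KD (-1.18, -1.23 to -1.13). Tgtp2 was at 20.1 and 7.78 CPM (-1.37).

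Macrophage clusters differed in the size of the ratio. Main cluster 3, led by Vcan and Chil3, genes of monocytes newly come from the blood, had a summed level of 2680 CPM in the Ctrl library and 775 CPM in the KD library (log2 ratio -1.79, -1.84 to -1.74, with 869 and 731 cells). Main cluster 0, led by C1q genes and Ccl12, had 1881 and 1099 CPM (log2 ratio -0.78, -0.81 to -0.74, with 1904 and 1268 cells). Clusters 5 and 13 had log2 ratios of -0.84 and -0.68. Single genes followed the same order, with Iigp1 at 228 and 46.7 CPM in cluster 3 (log2 ratio -2.29) and at 413 and 269 CPM in cluster 0 (-0.62). Irgm1 was at 182 and 42.6 CPM in cluster 3, a log2 ratio of -2.09, against one of -0.79 in cluster 0. Cluster 3 had the higher Gbp2 level in both libraries (1126 and 337 CPM, against 461 and 235 CPM in cluster 0), whereas Iigp1 was higher in cluster 0. Cluster 11, led by Pf4, Ltc4s, Arg1 and Fn1, held 38 cells of Ctrl and 631 of KD, with 2135 and 524 CPM, and without it the class had a log2 ratio of -0.97. At resolution 1.0 a cluster led by Inhba, Ly6i, Il1a, Ptgs2 and Nos2 held 1020 cells of Ctrl and 374 of KD. It had 2 of 13 macrophage markers, too few to be named. The Vcan and Chil3 cluster of that resolution held 311 and 399 cells, fewer than main cluster 3, at 2163 and 447 CPM (log2 ratio -2.28). Main cluster 3 may therefore hold other cells beside these monocytes. The macrophages that left the class at that resolution (1044 and 530 cells) were at 2805 and 1215 CPM.

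The granulocyte markers in macrophages summed to 474 CPM in Ctrl and 2475 CPM in KD, all 13 having UMIs in each. Their part in the result was tested only by leaving such cells out. With macrophages holding UMIs of other lineages left out, including S100a8, the log2 ratio was -1.06.

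**Figure D4:**
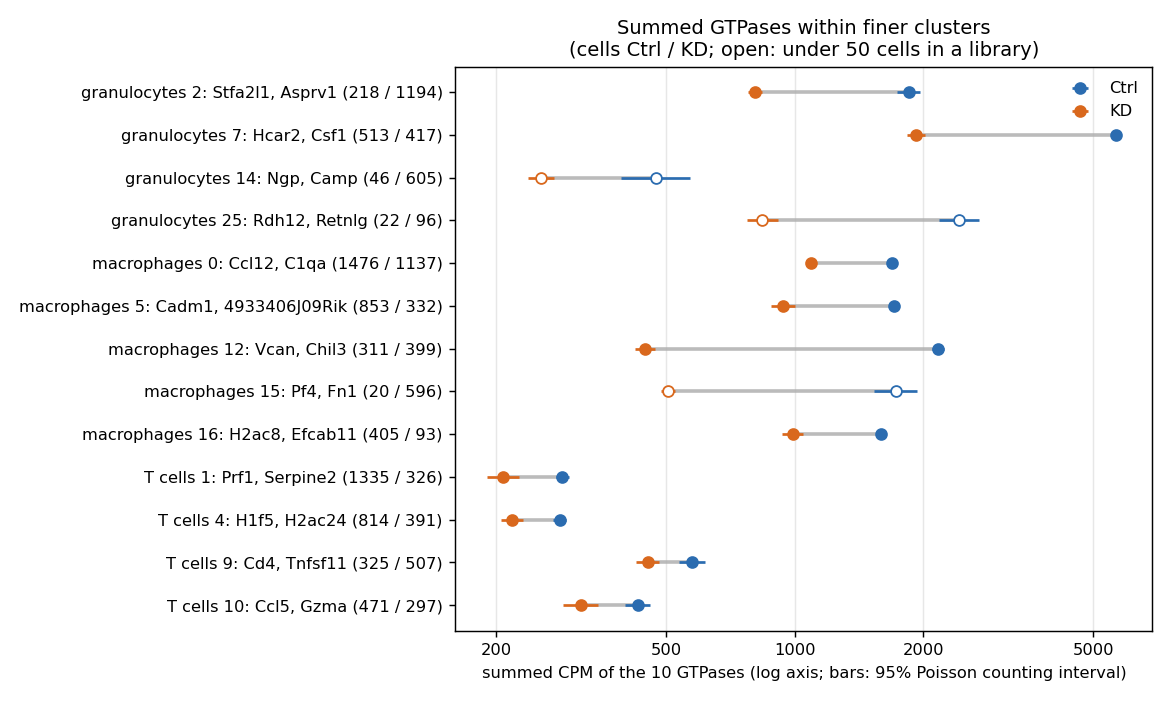
Summed level of the 10 GTPases (x axis, CPM, log axis) in Ctrl (blue) and KD (orange) within the clusters named granulocyte, macrophage or T cell at resolution 1.0. Cell numbers of Ctrl and KD stand beside each name, bars are the 95% Poisson interval, and points are open where a library had under 50 cells. Unnamed clusters and other classes are not shown. The orange point lies left of the blue one in all 13 clusters shown, with the widest gap in the Vcan and Chil3 macrophage cluster (2163 and 447 CPM).

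In T cells none of the 10 GTPases was 2-fold lower or higher in KD, against 1.57% of 12664 genes lower and 2.53% higher, and the median log2 ratio was -0.17. The sum was 311 CPM in Ctrl and 276 CPM in KD, a log2 ratio of -0.17 (-0.23 to -0.11). Gbp3 had the lowest ratio, with 33.1 and 22.3 CPM (log2 ratio -0.57, -0.78 to -0.36). Irgm2 was the 1 gene with a ratio above 0, at 19.2 and 20.8 CPM (0.11), and its interval of -0.12 to 0.34 includes 0. Gbp7, the most abundant in these cells, was at 83.1 and 79.8 CPM (-0.06, -0.17 to 0.05).

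Within kinds of T cells the ratio was further from 0 than over all of them. T cells in which Cd8a or Cd8b1 but not Cd4 was detected had GTPases at 290 CPM (Ctrl) and 214 CPM (KD), a log2 ratio of -0.44 (-0.52 to -0.36, with 2594 and 910 cells). Those in which Cd4 alone was detected had 637 and 409 CPM, a log2 ratio of -0.64 (-0.79 to -0.48, with 153 and 378 cells). The Cd4 cells had the higher level in both libraries and were 4.74% of T cells in Ctrl and 23.4% in KD, so that the small ratio over all T cells includes this change of mix. The 4 T cell clusters at resolution 1.0 had log2 ratios of -0.46, -0.37, -0.34 and -0.44. At least 2-fold lower were 2 of 10 GTPases in cluster 1 and 2 of 10 in cluster 4 (against 1.9% and 1.65% of all genes there), 0 of 9 in cluster 9 (1.13%) and 1 of 8 in cluster 10 (0.828%). The granulocyte markers in T cells summed to 116 CPM in Ctrl and 1038 CPM in KD, all 13 having UMIs in each library, and the macrophage markers to 495 and 490 CPM. Ifng, which encodes interferon-gamma and was chosen for mention after its values were seen, was at 432 CPM in T cells of Ctrl and 336 CPM in KD, a log2 ratio of -0.36 (-0.42 to -0.31).

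In B cells 8 of the 9 GTPases with at least 50 UMIs were at least 2-fold lower in KD, against 1.45% of 6690 genes lower and 1.23% higher. The exceptions were Gbp7, at 51.2 and 31.9 CPM (log2 ratio -0.68), and Tgtp2, which had 27 UMIs over both libraries and was left out of the count. The sum was 442 CPM in Ctrl and 174 CPM in KD, a log2 ratio of -1.34 (-1.55 to -1.14), from 363 and 432 UMIs. Irgm1 had the lowest ratio, with 59.7 and 15.3 CPM (-1.96, -2.61 to -1.32), followed by Iigp1 with 39.0 and 10.9 CPM (-1.84, -2.63 to -1.05). Gbp2 was at 68.3 and 26.2 CPM (-1.38).

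The IRG genes summed to a log2 ratio of -1.70 (-2.04 to -1.36) in B cells and the Gbp genes to -1.12 (-1.39 to -0.86), and these intervals overlap slightly. The macrophage list was higher in the B cells of Ctrl, at 917 CPM against 624 CPM in KD, with 12 of 13 markers having UMIs in Ctrl (F13a1 was at 0) and 13 of 13 in KD. Its part in the result was not tested beyond leaving such cells out. With cells holding UMIs of other lineages left out, 203 B cells of Ctrl remained, the log2 ratio of the sum was -1.24, and 4 of the 5 GTPases that still had at least 50 UMIs were at least 2-fold lower. With likely doublets left out this was 5 of 8, with a log2 ratio of the sum of -1.31.

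In endothelial cells 3 of the 10 GTPases were at least 2-fold lower in KD, against 2.35% of 9054 genes lower and 2.93% higher, with a median log2 ratio of -0.87. Iigp1, the most abundant, was at 792 CPM in Ctrl and 324 CPM in KD (log2 ratio -1.29, -1.41 to -1.17). Tgtp2 was at 27.0 and 7.22 CPM (-1.90, -2.67 to -1.14) and Gbp5 at 50.5 and 24.0 CPM (-1.07, -1.55 to -0.58).

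The other 7 genes had log2 ratios between -0.91 (Igtp, 60.9 and 32.4 CPM) and -0.33 (Gbp2, 63.6 and 50.5 CPM). The interval of Gbp2, -0.72 to 0.07, includes 0. The sum was 1452 and 711 CPM, a log2 ratio of -1.03 (-1.12 to -0.94). The summed IRG genes had a log2 ratio of -1.18 (-1.28 to -1.08) and the summed Gbp genes one of -0.68 (-0.84 to -0.52). Iigp1 held 910 of the 1228 IRG UMIs in Ctrl and 1392 of the 2026 in KD, so the IRG value is mainly that of this gene. Likely doublets made up 27.3% of these cells in Ctrl and 16.6% in KD, and without them the log2 ratio was -0.93. The macrophage list was at 1598 and 2254 CPM in endothelial cells, with 13 of 13 markers having UMIs in each. The list of tumor or fibroblast markers summed to 1750 and 1330 CPM in these cells (5 of 8 and 6 of 8 with UMIs, with Krt19 at 0 in both). It holds Sparc, a leading gene of an endothelial cluster when likely doublets were left out. The sum may therefore include transcripts of the endothelial cells themselves, and its part in the result was not tested.

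The classes differed in how far the ratio departed from 0. The interval of the sum in granulocytes did not overlap those of the other 4 classes, and that in T cells lay closest to 0 without overlapping the rest. Gbp7 had the log2 ratio closest to 0 among the Gbp genes of granulocytes, macrophages, T cells and B cells, but not of endothelial cells, where that was Gbp2. For comparison, the summed log2 ratio in the cluster named NK was -0.13 (-0.26 to -0.0067), with an interval that overlapped that of T cells. That cluster, of 432 and 735 cells, was led by Lef1, Klra7, Gm2682 and Tcf7. At resolution 1.0 the cluster named NK held 182 and 223 cells. An unnamed cluster led by Lef1 and Tcf7, with 2 of 8 NK markers, held 249 and 509. The value may therefore not be one of NK cells alone. The summed log2 ratio was -0.91 (-0.98 to -0.84) in conventional dendritic cells. It was -0.68 (-1.01 to -0.36) in plasmacytoid dendritic cells (82 and 73 cells) and -0.76 (-0.92 to -0.59) in Kupffer cells (49 and 82 cells). Likely doublets made up 15.9% and 17.8% of the plasmacytoid dendritic cells and 36.7% and 30.5% of the Kupffer cells. Their part in these values was not tested.

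The number of GTPases detected per cell was compared after each cell was thinned to 1000 UMIs. In granulocytes 78.5% of 731 Ctrl cells and 38.7% of 2107 KD cells had at least 1 of the 10 (exact intervals 75.4 to 81.4% and 36.6 to 40.8%), and 40.6% and 4.51% had at least 3. The median granulocyte had 2 in Ctrl and 0 in KD. Without thinning 87.9% and 60.4% had at least 1, at a median depth of 2144 UMIs in Ctrl and 2809 UMIs in KD. Gbp2 alone was found in 60.9% and 23.6% of thinned granulocytes and Irgm1 in 25.7% and 3.65%.

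In macrophages 76.5% of 3958 Ctrl cells and 47.0% of 2992 KD cells had at least 1 GTPase, and 21.4% and 6.32% had at least 3. The corresponding values for at least 1 were 72.3% and 43.6% in endothelial cells, 29.6% and 15.0% in B cells, and 26.2% and 24.0% in T cells, where the exact intervals overlap. Without thinning the T cell shares were 76.5% and 71.4%, with a median depth of 6602 UMIs in Ctrl and 5577 UMIs in KD. Left out for having under 1000 UMIs were 47 granulocytes, 147 macrophages, 92 T cells, 19 B cells and 20 endothelial cells of Ctrl. In KD 2107 of 2219 granulocytes, 2992 of 3082 macrophages, 1588 of 1614 T cells, 831 of 870 B cells and 596 of 645 endothelial cells had enough UMIs. No class is known to lack these genes, so that there is no class to set the background from free RNA. Gbp2 was found in 60.9% of thinned granulocytes of Ctrl but in 2.81% of T cells, and Iigp1 in 23.3% of thinned endothelial cells of KD but in 0.712% of granulocytes. The share of these detections that came from free RNA was not measured.

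**Figure D5:**
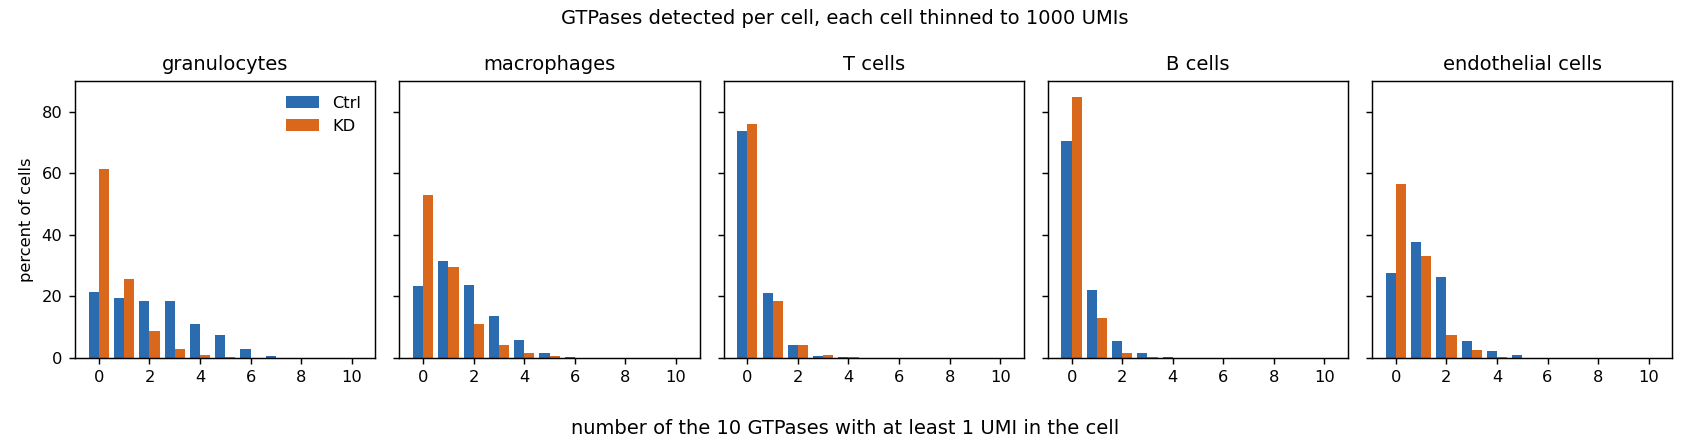
Percent of cells (y axis) by the number of the 10 GTPases with at least 1 UMI (x axis), each cell thinned to 1000 UMIs, for Ctrl (blue) and KD (orange) in the 5 classes. In granulocytes 40.6% of Ctrl cells have 3 or more and 4.51% of KD cells do, whereas the bars of T cells are nearly the same height in both libraries.

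Other interferon-inducible genes were counted by the same rule, over lists that hold none of the 10 genes. Of all genes, 7.09% were at least 2-fold lower in KD in granulocytes, 2.86% in macrophages, 1.57% in T cells, 1.45% in B cells and 2.35% in endothelial cells. At least 2-fold higher were 7.42%, 2.6%, 2.53%, 1.23% and 2.93%, in the same order. On the list of other interferon-inducible GTPases, 8 of 10 with at least 50 UMIs were at least 2-fold lower in KD granulocytes (median log2 ratio -1.94) and 5 of 18 in macrophages (-0.74). Whether each listed gene, Irgc1 among them, responds to interferon was not checked, nor whether the list covers the whole family. In granulocytes the lowest were Tgtp1 (log2 ratio -4.71) and Gbp9 (-2.95), and the highest were Gvin3 (-0.82) and Irgc1 (-0.50). In macrophages the lowest were Tgtp1 (-1.60) and F830016B08Rik (-1.18), and the highest were 9930111J21Rik2 (-0.06) and Irgc1 (0.35).

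Of the interferon-gamma response genes, 20 of 30 were at least 2-fold lower in KD granulocytes (median -1.30), 8 of 33 in macrophages (-0.65), 3 of 32 in T cells (-0.15), 5 of 29 in B cells (-0.47) and 6 of 31 in endothelial cells (-0.44). The chemokine genes Cxcl11 (55.3 and 2.49 CPM, log2 ratio -4.47) and Cxcl10 (1497 and 85.7 CPM) were lowest in granulocytes, and the highest were H2-Aa (-0.11) and Nos2 (40.0 and 76.6 CPM, 0.94). In macrophages Nos2, which encodes inducible nitric oxide synthase, was lowest, at 167 and 26.9 CPM (-2.63), before Batf2 (-1.70), and H2-Aa (-0.08) and H2-D1 (-0.01) were closest to no difference.

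Irf1, which encodes a transcription factor that acts on interferon-inducible promoters, was looked up after the values of the GTPases were seen. It was at 888 CPM in Ctrl granulocytes and 210 CPM in KD (log2 ratio -2.08), and had log2 ratios of -1.12 in macrophages, -0.29 in T cells, -1.04 in B cells and -1.25 in endothelial cells.

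Of the type I interferon response genes, 27 of 38 were at least 2-fold lower in KD granulocytes (median -1.56), against 7.09% of all genes. In macrophages 2 of 43 were (-0.60), against 2.86% of all genes. In T cells 0 of 40 were lower and 1 was higher (median 0.01), in B cells 2 of 18 were lower, and in endothelial cells 9 of 37 were lower and 2 higher. In granulocytes Ifit3b (66.2 and 8.02 CPM, -3.05) and Ifit2 (145 and 18.1 CPM) were lowest and Slfn4 (-0.41) and Slfn1 (-0.28) highest. In macrophages Isg15 (323 and 140 CPM, -1.20) and Rsad2 (-1.09) were lowest and Slfn1 (0.03) and Slfn4 (0.39) highest.

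A further list held interferons, their receptors and kinases, and related genes such as Il18 and Ptpn2. At least 2-fold lower were 2 of 11 in granulocytes, Il18 (-1.48) and Ptpn2 (-1.24), against 7.09% of all genes. In macrophages 1 of 15 was, Il12rb1 (-1.42), against 2.86%. These few calls were not read as a result about the list. Ifngr1, which encodes the ligand-binding chain of the interferon-gamma receptor, had higher values in KD. It was at 128 CPM in Ctrl and 209 CPM in KD granulocytes (log2 ratio 0.71, 0.51 to 0.92) and at 152 and 299 CPM in macrophages (0.97, 0.92 to 1.03). Ifngr2, the other chain, had a log2 ratio of 0.59 in granulocytes, and Ifnar2, a type I interferon receptor gene, 0.14 in macrophages. Ifnb1 in macrophages rested on 42 and 27 UMIs (-0.52, -1.27 to 0.21).

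The ATG8 conjugation genes encode the autophagy proteins that IRG and Gbp proteins need in order to reach the right vacuoles. None of these was 2-fold lower or higher in any of the 5 classes, with 10 of 10 tested in granulocytes and in macrophages and medians of 0.31 and 0.08. In granulocytes Atg16l1 (-0.74) and Atg7 (-0.21) were lowest and Gabarapl2 (0.55) and Atg12 (0.64) highest. In macrophages Atg16l1 (-0.05) and Gabarapl1 (-0.04) were lowest and Atg7 (0.31) and Map1lc3b (0.33) highest.

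The genes whose levels over the 10 class and library values were most like the mean of the GTPases were Cxcl11 (Pearson r = 0.98), Cxcl10 (0.98), Ogfr (0.97), Gm12250 (0.95), Usp18 (0.95), Parp9 (0.93), Xaf1 (0.91), Ilrun (0.91), Tapbp (0.90) and Parp14 (0.90), out of 10499 genes compared on log2(CPM + 1). These correlations describe 10 points that share 2 libraries and their depths. Of these genes 9 were highest in granulocytes of Ctrl, and Cxcl11 in macrophages of Ctrl. Ogfr, Gm12250, Parp9 and Ilrun were on none of the lists, and whether any is itself an interferon-inducible GTPase was not checked. Among the GTPases themselves, Irgm1 was most like the mean of the other 9 (r = 0.94) and Iigp1 the least (r = 0.42).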

How the data were processed

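The authors aligned the reads of the 10x Genomics 3′ libraries with Cell Ranger 7.1.0 to GRCm39, per the submitters' processing notes, and deposited raw UMI counts per gene and cell, which were used as deposited. Barcodes with fewer than 200 genes, more than 10% of UMIs from mitochondria, more than 30000 UMIs or more than 6000 genes were dropped, which left 19999 of 21359 cells. Both libraries were clustered together in Seurat 5.3.0 (2000 variable genes, 20 components, resolution 0.5) with 125 interferon genes barred from the variable genes, and clusters were named from marker lists. Doublets were scored with Scrublet in scanpy 1.11.5 and kept. UMIs were summed per class and library and scaled to counts per 1000000 (CPM), with exact Poisson intervals for levels, Clopper-Pearson intervals for shares and exact conditional binomial intervals for ratios, all at 95%. A gene was counted as lower or higher from 2-fold, among genes with at least 50 UMIs in the class. The ratio and its interval were run on simulated Poisson counts, which follow the model that the interval assumes. That run checks the calculation only and holds no spread between cells or mice. All 10 members were named, with, per list, the 2 highest and 2 lowest genes in granulocytes and macrophages, and the 10 genes most like the members among those with at least 500 UMIs. Members and lists were chosen with earlier results of these data known. Alternatives were other cell filters, doublet removal, resolutions, classes, scalings, including TMM of edgeR 4.0.16, and UMI filters.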

Additional observations from a re-analysis of the deposited data

Results flagged for a closer look

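Nos2 had a log2 ratio of KD over Ctrl of 0.94 in granulocytes and -2.63 in macrophages. Slfn4 had a log2 ratio of -0.41 in granulocytes and 0.39 in macrophages. Both are given here because the ratio pointed in opposite directions in these classes, with intervals that exclude 0 for counting error only, and with 1 library per group the difference between the classes was not tested.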

How the results depend on the processing

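The direction of the summed ratio was below 0 in all 5 classes under every alternative run, with log2 ratios of -2.57 to -2.09 in granulocytes, -1.16 to -0.97 in macrophages, -0.18 to -0.077 in T cells, -1.34 to -1.24 in B cells and -1.07 to -0.93 in endothelial cells. Values outside the counting interval of the reported one were as follows, and the cause was not tested. Without clusters over 90% from 1 library, the log2 ratio was -2.09 in granulocytes and -0.97 in macrophages. At resolution 1.0 it was -2.38 and -1.04, with 1044 Ctrl and 530 KD macrophages outside the class, in which it was -1.21. Classes from marker UMIs of single cells gave -2.32 and -1.08, and median-of-ratios scaling gave -2.57 and -1.10. In granulocytes it was -2.38 with interferon genes kept among the variable genes, -2.36 as a mean over cells and -2.54 without Gbp2, an alternative chosen after seeing the data. Without likely doublets it was -1.09 in macrophages, -0.077 in T cells and -0.93 in endothelial cells. TMM scaling gave -1.09 in macrophages and -0.93 in endothelial cells. Without cells holding other-lineage UMIs it was -1.06 in macrophages and -0.11 in T cells, and as a mean over cells -0.097 in T cells. The number of GTPases at least 2-fold lower was all of those tested in granulocytes (10, or 9 of 9 without cells holding other-lineage UMIs), 6 to 7 in macrophages and 0 in T cells under every alternative for the whole class. It was 5 in B cells without likely doublets, 4 in B cells without cells holding other-lineage UMIs, and 5 in endothelial cells as a mean over cells. Shares of cells with at least 1 GTPase moved with the thinning depth of 500 or 1500 UMIs, from 8.51% to 85.5% over classes and libraries. No paired analysis was possible because each group was 1 library. Depth limits the B cell values most, where the 10 genes had 363 and 432 UMIs.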
